A study of Mus musculus with 6 samples.

Results

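Macrophage genes of the mouse colon wall were followed through 10 symbols: the complement C1q chains C1qa, C1qb and C1qc, the receptors Csf1r, Adgre1, Cd14 and Mrc1, the lysosomal and granule genes Cd68 and Lyz2, and the adaptor gene Tyrobp. Every probe that the platform annotation pairs with a member symbol was taken. This gave 14 probes for 9 of the 10 genes, out of 45281 probes on each array, and the annotation used here names no probe for Cd68. Per the labels, RNA came from colon tissue of C57BL/6 mice aged 6 weeks, with 3 samples of the control genotype and 3 of the genotype Setd2 KO. The control genotype is not described further, and neither how the deletion was made nor the cell types that carry it are given in the labels. Each sample was hybridised to an Illumina bead array. The labels do not say whether the 3 samples of a genotype are separate animals, and the p-values below reflect the scatter among arrays, which may be technical.

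Macrophages are the resident phagocytes of the gut wall, where they lie beneath the epithelium and in the muscle layer. They depend on the growth factor receptor CSF1R, are renewed in the mouse colon largely from blood monocytes, and clear bacteria and dying cells without mounting strong inflammation. C1q, the recognition unit that starts the classical complement pathway, is assembled from the A, B and C chains, and tissue macrophages are a main source of it. The adhesion receptor encoded by Adgre1 and the mannose receptor encoded by Mrc1 are surface markers of mouse tissue macrophages, although Mrc1 is also expressed by lymphatic and other endothelial cells. CD14 passes lipopolysaccharide to TLR4, Lyz2 encodes the lysozyme of myeloid cells, and TYROBP (DAP12) relays signals from activating receptors of myeloid and NK cells.

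RefSeq promoter sequences (GRCm38.p6) were matched by symbol for 5 of the 10 genes: C1qb, C1qc, Cd68, Lyz2 and Mrc1. The 250 bases before the start site are shown for the 4 of them that were measured. By the brightest probe of each, C1qb, C1qc and Lyz2 were lowest on control 2 and Mrc1 on KO 3. The other Lyz2 probes were not lowest on control 2. Whether these sequences relate to the array values was not tested. Capitals mark AGGAAGT on either strand (ACTTCCT as printed), the core that ETS factors such as PU.1, the master regulator of myeloid cells, recognise.
C1qb upstream region, chr4:136886201-136886450, minus strand: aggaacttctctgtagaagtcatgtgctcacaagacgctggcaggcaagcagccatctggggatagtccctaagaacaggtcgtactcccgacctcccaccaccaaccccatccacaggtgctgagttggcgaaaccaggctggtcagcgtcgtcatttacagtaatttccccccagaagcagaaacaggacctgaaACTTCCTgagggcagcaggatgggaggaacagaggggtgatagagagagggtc
C1qc upstream region, chr4:136892915-136893164, minus strand: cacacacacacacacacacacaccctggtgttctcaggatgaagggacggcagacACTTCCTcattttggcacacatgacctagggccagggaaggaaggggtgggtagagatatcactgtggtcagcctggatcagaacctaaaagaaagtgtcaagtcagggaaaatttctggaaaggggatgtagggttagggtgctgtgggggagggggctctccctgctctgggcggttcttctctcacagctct
Lyz2 upstream region, chr10:117282273-117282522, minus strand: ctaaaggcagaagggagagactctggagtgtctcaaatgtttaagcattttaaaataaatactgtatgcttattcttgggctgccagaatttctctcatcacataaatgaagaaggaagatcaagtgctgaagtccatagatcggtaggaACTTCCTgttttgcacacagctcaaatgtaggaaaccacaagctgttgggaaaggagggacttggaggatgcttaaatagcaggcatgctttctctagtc
Mrc1 upstream region, chr2:14229164-14229413, plus strand: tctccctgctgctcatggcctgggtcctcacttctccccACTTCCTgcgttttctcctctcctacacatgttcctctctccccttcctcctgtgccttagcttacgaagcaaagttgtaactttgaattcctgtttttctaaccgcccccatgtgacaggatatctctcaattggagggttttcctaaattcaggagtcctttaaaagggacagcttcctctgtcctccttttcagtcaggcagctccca

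Each of these 4 regions held 1 match, all on the strand opposite to the gene, ending 47 bases before the start site in C1qb, 94 in Lyz2, 189 in C1qc and 205 in Mrc1. The Cd68 window, which is not shown, held no AGGAAGT match. Among all 32851 promoter sequences of the table, 7.69% held AGGAAGT in the same 250-base window. The motif was chosen after these sequences had been read, so the matches are a description. The AP-1 motif TGANTCA, which overlaps no AGGAAGT match in these regions, was absent from the 4 sequences shown, had 2 matches in the Cd68 window, and occurred in 6.75% of all promoters.

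Values are log2 of the deposited normalized intensity, on which 0 is the floor of the table: every probe at the lowest listed intensity of 1. Values at the floor have no order among themselves. Control 2 stood apart from the other arrays. It had 41.6% of its probes at the floor against 33.5% to 36.9% on the other 5, and its mean correlation with the other arrays over 18918 features was 0.810 against 0.897 to 0.906. The differences of the members and the medians of the gene lists are therefore given with and without it. The brightest Setd2 probe was lower on all 3 KO arrays (7.65, 6.89 and 7.19) than on the control arrays (8.55, 9.23 and 8.36), a difference of -1.47 (-1.21 without control 2). The groups of the other Setd2 probes overlapped. The first of them was at the floor on control 2 and differed by -0.020 (-1.72 without control 2), and the second by -0.64 (-0.93), and without control 2 neither overlapped. By limma, an adjusted p of 0.05 was passed by 0 of 18918 features (0%). At an unadjusted p under 0.05, 314 features (1.66%) were higher in KO and 500 (2.64%) lower.

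No macrophage gene was called in either direction. Of the 9 measured genes, 0 passed the adjusted threshold and 0 had an unadjusted p under 0.05, with limma adjusted p between 0.940 and 0.999. Control and KO arrays overlapped for all 9, where 8.68% of all features had groups that did not overlap (3.38% higher and 5.31% lower in KO). The mean was higher in KO for 6 genes and lower for 3, against 44.6% higher and 55.4% lower among all features. This split rested on control 2, which had the lowest value of 7 of the 9 genes by the brightest probe of each. For Lyz2 that probe was at the floor on control 2. The other Lyz2 probes gave 5.91 and 4.94 there and were lower in KO with all 6 arrays (-0.60 and -0.93). Without control 2 all 9 means were lower in KO by the brightest probe of each gene, against 50.1% of features lower and 49.9% higher. The other Adgre1 probes were then higher in KO. A change in the number of macrophages and a change in RNA per macrophage, in either direction, cannot be told apart in such tissue samples.

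**Figure D1:**
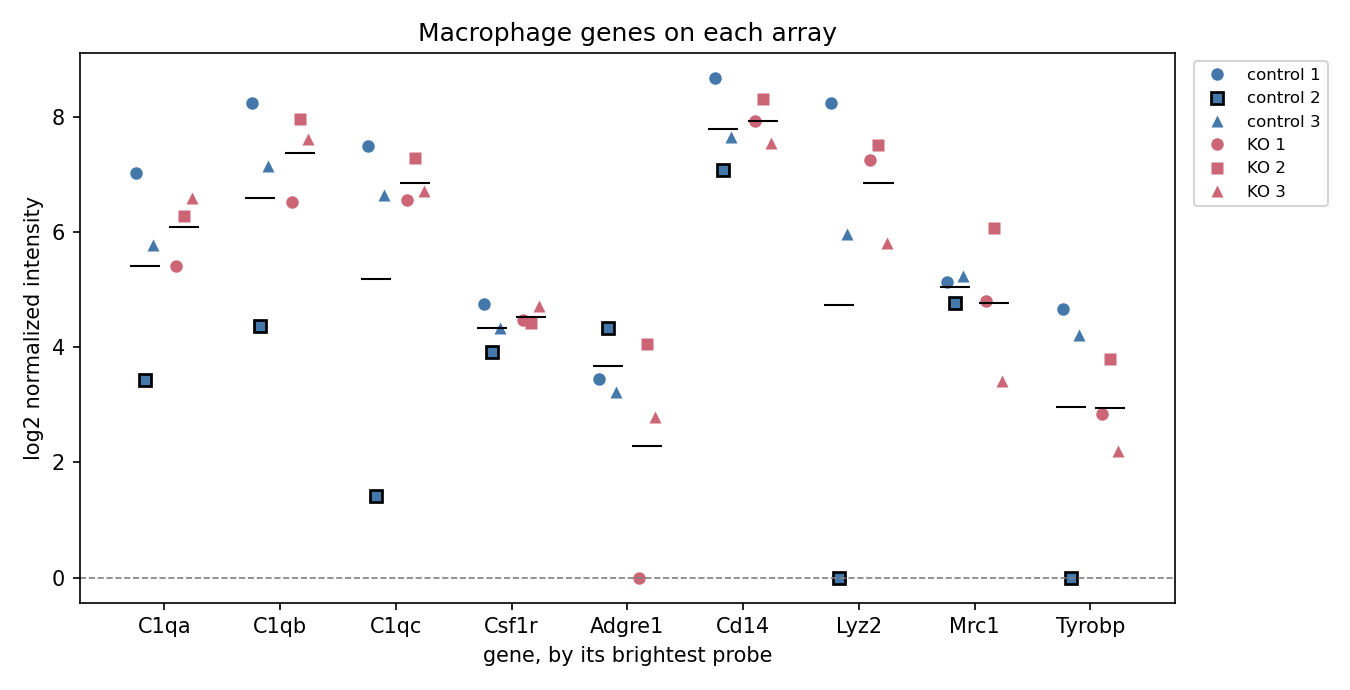
Log2 normalized intensity of the 9 measured macrophage genes, each by its brightest probe, on the 3 control arrays (blue) and 3 KO arrays (red). Symbols mark the replicate number, horizontal bars the group means and the dashed line the floor, and control 2, outlined in black, is lowest for 7 of the 9 genes.

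The C1q chains were lowest on control 2. C1qb, the B chain, measured 8.24, 4.37 and 7.15 on control 1 to 3 and 6.52, 7.97 and 7.62 on KO 1 to 3. C1qa, the A chain, measured 7.03, 3.43 and 5.78 in control and 5.41, 6.28 and 6.59 in KO. C1qc, the C chain, measured 7.49, 1.41 and 6.65 in control and 6.56, 7.29 and 6.71 in KO. For each chain control 1 was the highest array and control 2 the lowest, and the KO arrays lay between them.

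The fitted log2 differences of the chains, KO minus control, were positive and of the size of their standard errors. Control arrays averaged 6.59 ± 1.99 (SD, n = 3) for C1qb and KO arrays 7.37 ± 0.76, which gave 0.78 (SE 1.03, limma adjusted p = 0.940). C1qa differed by 0.68 (SE 0.94) and C1qc by 1.67 (SE 1.54), the latter with a control SD of 3.30 against 0.39 in KO. Exact permutation p was 0.7 for C1qa and C1qb and 0.8 for C1qc, where 3 against 3 arrays cannot go below 0.1. Without control 2 the differences turned to -0.33 (SE 0.61) for C1qb, -0.31 (SE 0.57) for C1qa and -0.22 (SE 0.43) for C1qc.

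The chains are encoded next to each other on chromosome 4 in the RefSeq table, and their values were correlated across the arrays. Over the 6 arrays Pearson's r was 0.985 for C1qa with C1qb (exact permutation p = 0.0028), 0.953 for C1qb with C1qc (p = 0.0014) and 0.937 for C1qa with C1qc (p = 0.0153). Spearman's rho was 0.943, 1 and 0.943 (exact permutation p = 0.0167, 0.0028 and 0.0167), and the largest p adjusted over these 6 relations was 0.0167. Leaving out the 2 arrays farthest from the median of the first gene of a pair gave r = 0.883 for C1qa with C1qb, without control 1 and control 2. It gave 0.934 for C1qb with C1qc, where control 2 and KO 1 were left out and control 1 stayed in. For C1qa with C1qc it gave 0.502, again without control 1 and control 2. The arrays left out differ between pairs, and so few remain that these values cannot show which arrays a relation rests on. Without control 2 alone, r was 0.925 for C1qa with C1qb, 0.888 for C1qb with C1qc and 0.760 for C1qa with C1qc. Correlations as high were found with members that are not neighbours of the C1q genes. Over the 6 arrays r was 0.977 for C1qc with Lyz2 and 0.940 for C1qa with Csf1r, and without control 2 it was 0.763 and 0.793. Lyz2 entered by its brightest probe, which was at the floor on control 2. The other Lyz2 probes read 5.91 and 4.94 there, and their correlations with the chains were not computed.

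Among the receptors, Csf1r, the receptor for the growth factor CSF1 that macrophages need to survive, varied least. Its brighter probe measured 4.76, 3.92 and 4.33 in control and 4.47, 4.42 and 4.71 in KO. The range over all 6 arrays was 0.83, and the difference was 0.20 (SE 0.40, limma adjusted p = 0.950), or -0.0094 (SE 0.32) without control 2. The second Csf1r probe was under the filter on low values and was listed at the floor on 5 of 6 arrays, with 1.28 on control 1.

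Cd14, the co-receptor for lipopolysaccharide, measured 8.68, 7.07 and 7.65 in control and 7.92, 8.32 and 7.55 in KO. Control 1 was highest and control 2 lowest, with the KO arrays between them, the order also seen for the C1q chains. The means were 7.80 ± 0.81 (SD, n = 3) and 7.93 ± 0.38, a difference of 0.13 (SE 0.54). It became -0.23 (SE 0.46) without control 2 and -0.061 without KO 2.

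Mrc1, the mannose receptor gene, measured 5.14, 4.76 and 5.24 in control and 4.81, 6.07 and 3.42 in KO. Here the spread lay among the KO arrays, with an SD of 1.33 against 0.25 in control, and KO 2 and KO 3 were the extremes of all 6 arrays. The difference was -0.28 (SE 0.71, limma adjusted p = 0.956). It turned to 0.39 without KO 3 and was -0.42 without control 2.

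Adgre1, the adhesion receptor gene, was dim on all its 3 probes, and they did not share a direction. The brightest measured 3.46, 4.34 and 3.22 in control. In KO it was at the floor on KO 1, at 4.06 on KO 2 and at 2.80 on KO 3. Its difference of -1.39 (SE 1.04, exact permutation p = 0.4) was -0.24 without KO 1. The next probe gave 0.20, 3.91 and 2.95 in control and 2.50, 3.96 and 3.11 in KO, a difference of 0.84 (SE 1.00). The dimmest was at the floor on control 3, KO 1 and KO 3, with a difference of -0.70 (SE 1.00). Without control 2 the 3 probes gave -1.05 (SE 1.23), 1.61 (SE 1.06) and 0.11 (SE 1.02). On each of the 3 Adgre1 probes control 2 and KO 2 were the highest arrays, so control 2 was not low for this gene.

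Lyz2, the lysozyme gene of macrophages and neutrophils, had 3 probes that disagreed on control 2. The brightest measured 8.25 and 5.98 on control 1 and control 3 and 7.25, 7.51 and 5.82 in KO, while control 2 was listed at the floor. Its fitted difference of 2.12 (SE 2.00, exact permutation p = 0.7) depended on that floor value and was -0.25 (SE 0.88) without control 2. The other probes gave control 2 values of 5.91, below control 1 at 6.26 and above the rest, and 4.94, the highest of the 6 arrays. Their differences were -0.60 (SE 0.63) and -0.93 (SE 0.89). Without control 2 the 3 probes gave -0.25, -0.40 and -0.39.

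Lyz1, the lysozyme gene of Paneth cells, is a close paralog of Lyz2, and whether probes of either gene also bind transcripts of the other was not tested. The brightest Lyz1 probe measured 11.53, 9.79 and 9.20 in control and 10.44, 10.49 and 9.65 in KO. Control 1 was highest and control 3 lowest, and the difference was 0.021 (SE 0.68).

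**Figure D2:**
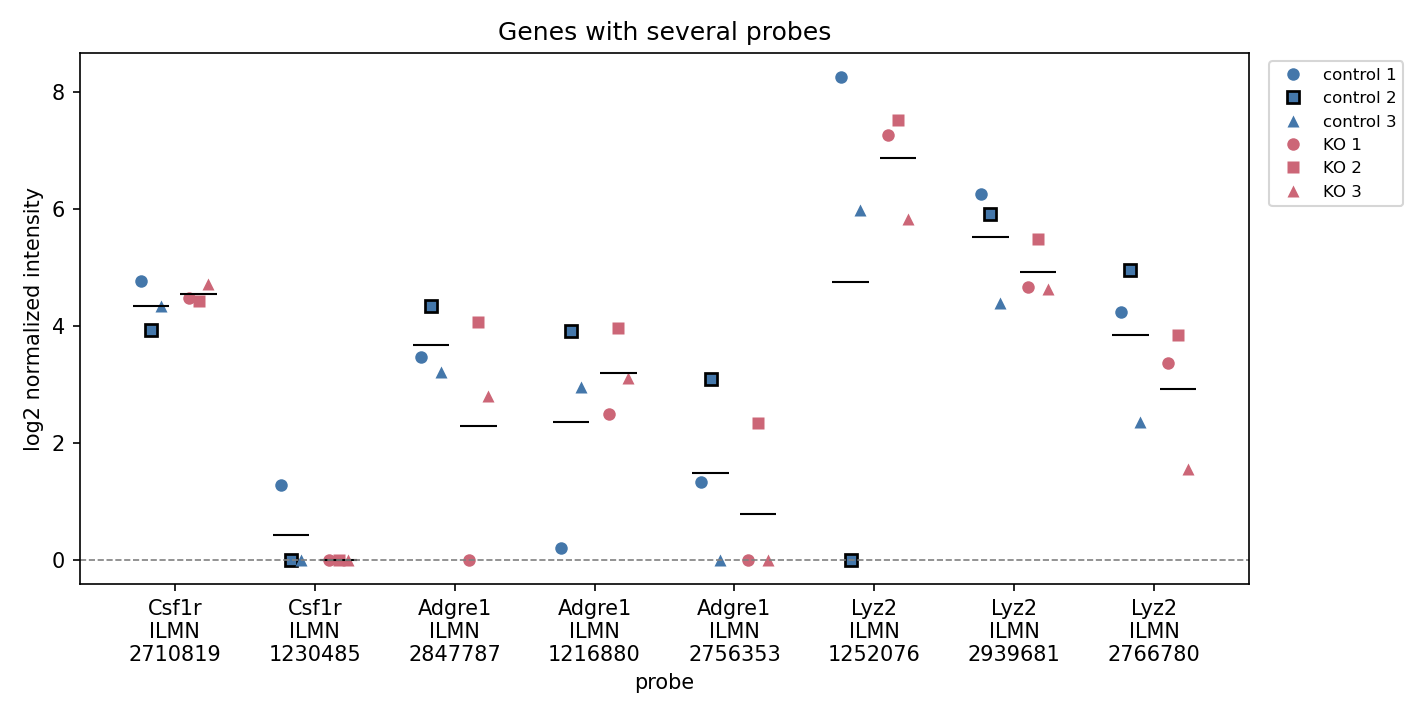
Log2 normalized intensity of every probe of the 3 macrophage genes with several probes, Csf1r, Adgre1 and Lyz2, on the 3 control (blue) and 3 KO (red) arrays, with group means as bars and the floor as a dashed line. Control 2, outlined in black, is at the floor for the brightest Lyz2 probe and at 5.91 and 4.94 for the other Lyz2 probes.

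Tyrobp, the adaptor gene, measured 4.66 and 4.22 on control 1 and control 3 and 2.84, 3.80 and 2.19 in KO, with control 2 at the floor. With that floor value counted as 0, the means were 2.96 ± 2.57 (SD, n = 3) and 2.94 ± 0.81, a difference of -0.017 (SE 1.27). Without control 2 all 3 KO arrays lay below both control arrays, with a difference of -1.50 (SE 0.56, unadjusted p = 0.0436, limma adjusted p = 0.955). Among all features on the same 5 arrays 2.52% were lower and 2.55% higher in KO at an unadjusted p under 0.05, and groups did not overlap for 16.1% of features there. The difference took the opposite sign without control 1 (0.83), control 3 (0.61), KO 1 (0.036) or KO 3 (0.36).

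**Figure D3:**
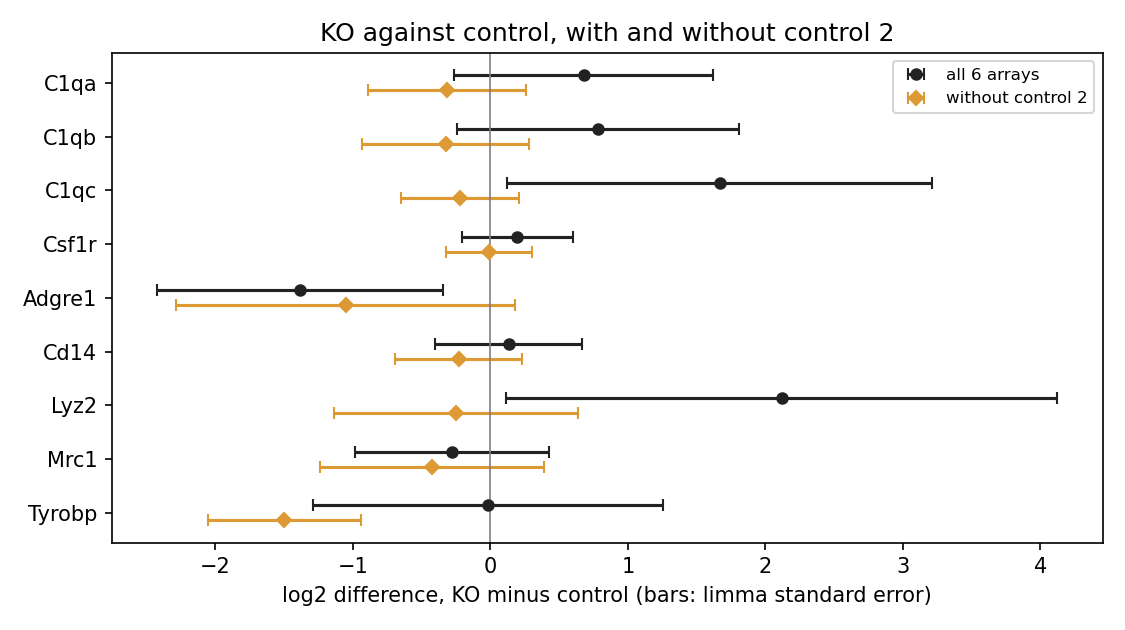
Log2 difference, KO minus control, of each measured macrophage gene with limma's standard error as the bar, from all 6 arrays (black circles) and from the 5 arrays without control 2 (orange diamonds). C1qa, C1qb, C1qc, Csf1r, Cd14 and Lyz2 change sign when control 2 is left out, and all 9 orange diamonds lie below 0. Each gene is shown by its brightest probe, and the other Lyz2 probes are lower in KO with and without control 2.

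Over the 9 measured genes, each by its brightest probe, the median log2 difference was 0.20, with 3 of 9 lower in KO. Among all features the median was -0.085. Without control 2 the median was -0.31 with 9 of 9 lower, against a median of -0.00087 among all features. The 9 genes share arrays and several share a profile, so they are not independent. Leaving out KO 3 instead gave 1 of 9 lower, and control 2 was the only array whose omission made the median negative (medians 0.23 to 0.83 without each of the others). Centred on each gene's own mean, the members averaged 1.11 on control 1, -2.04 on control 2, 0.28 on control 3, and -0.21, 0.89 and -0.031 on KO 1 to 3. The highest array was thus a control array, as was the lowest, and KO lay within the control range.

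Other macrophage genes were read from lists of related genes, in which 0 genes passed the adjusted threshold of limma. The counts of lower genes below, also those of other cell types, stand beside 55.4% of all features lower in KO. Without control 2 that share was 50.1%. Macrophage identity and surface receptor genes, 24 of 30 measured, had a median difference of -0.35 with 16 lower in KO. Without control 2 the median was -0.22 and 15 were lower. Cbr2, a carbonyl reductase found in a subset of mouse tissue macrophages, measured 8.16, 7.36 and 6.92 in control and 5.86, 6.66 and 6.25 in KO, and was the gene of this list with an unadjusted p under 0.05 (difference -1.23, SE 0.49, limma adjusted p = 0.940). Mertk and Apoe, which serve the uptake of dying cells and lipid transport, were both lowest on control 2, where Mertk was 3.87 against 5.78 or more on the other arrays. Their differences were 1.21 and 1.38 with control 2 and 0.37 and 0.36 without it. Sirpa, an inhibitory receptor of phagocytes, differed by -0.59 (SE 0.47), or -0.30 without control 2, its highest array.

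Monocyte and inflammatory macrophage genes, 13 of 20 measured, had a median of -0.16 with 8 lower (-0.50 with 9 lower without control 2). The chemokine gene Ccl4, whose product attracts T cells and monocytes, measured 7.70, 7.46 and 7.17 in control and 5.03, 5.85 and 6.44 in KO. Its groups did not overlap, and the difference was -1.67 (SE 0.49, limma adjusted p = 0.753). Cxcl9 and Cxcl10, interferon-induced chemokine genes, differed by -1.12 and -0.55, or -1.65 and -2.18 without control 2, and control 1 was their highest array at 8.53 and 8.51. Plac8, also expressed by epithelial cells, differed by -0.10.

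Among 17 complement genes other than the C1q chains, 10 were lower in KO with a median of -0.22, and 8 with a median of 0.19 without control 2. C2, the protease gene that acts downstream of C1q, measured 8.50, 9.22 and 8.61 in control and 5.37, 6.74 and 7.59 in KO. The KO arrays lay below the control arrays, with a difference of -2.21 (SE 0.64, limma adjusted p = 0.744), and -1.99 without control 2. C4b, which encodes the other downstream component of the classical pathway, differed by -0.86 (SE 0.48), and the alternative pathway genes Cfb and Cfp by -1.32 (SE 0.61) and -0.87 (SE 0.50). Without control 2 these were -0.50, -1.01 and -0.61. For C2, C4b, Cfb and Cfp control 2 was the highest array, unlike for C1qa, C1qb and C1qc.

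Of 13 partners of CD14 in lipopolysaccharide sensing, 8 were lower in KO with a median of -0.065, and 9 with a median of -0.23 without control 2. Ly96, which encodes MD-2, measured 6.92, 8.22 and 6.91 in control and 6.37, 6.58 and 6.40 in KO, a difference of -0.90 (SE 0.49) and -0.46 (SE 0.28) without control 2. Tlr4, the lipopolysaccharide receptor gene, differed by -0.66 (SE 0.41), and Ly86 and Traf6 by -0.97 and -0.49. Without control 2 these were -0.44, -1.32 and -0.15. The groups did not overlap for Ly96 and Tlr4, and limma adjusted p was 0.940 for each of the 4 genes.

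Of 13 partners and relays of TYROBP, 10 were lower in KO with a median of -0.84, and 11 with a median of -0.57 without control 2. Vav1, a guanine nucleotide exchange factor of blood cells, measured 7.71, 7.84 and 7.12 in control and 6.08, 6.17 and 7.08 in KO, a difference of -1.11 (SE 0.46). Without control 2 it was -0.97. Plcg2, a phospholipase, differed by -0.84 (SE 0.45), or -0.57 without control 2. Hcst, a related adaptor gene, differed by -0.67 and Siglech, a receptor of plasmacytoid dendritic cells, by -0.87. Without control 2 these were -0.32 and -0.27.

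Lysosome and phagosome genes, 21 of 25 measured, had a median of -0.13 with 15 lower in KO (-0.076 with 13 lower without control 2). The cysteine protease gene Ctss measured 6.69, 7.75 and 6.73 in control and 6.20, 6.58 and 6.09 in KO, a difference of -0.77 (SE 0.46), or -0.42 without control 2. Npc2, a cholesterol carrier of lysosomes, differed by -0.79, Laptm5 by -0.61, and Ncf4, a subunit of the phagocyte NADPH oxidase, by -1.11. Without control 2 these were -0.63, -0.69 and -0.71. Among 14 CSF1 receptor ligands and myeloid transcription factors, 7 were lower and 7 higher with a median of -0.041 (8 and 6, and -0.039, without control 2). Spi1, which encodes PU.1, gave 4.06 and 3.39 on control 1 and control 3 and 3.68, 3.04 and 3.71 in KO, with control 2 at the floor. Klf4, a transcription factor gene also active in epithelium, was 9.48 to 10.25 on 5 arrays and 4.06 on control 2, and its difference of 2.00 was 0.12 without control 2.

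**Figure D4:**
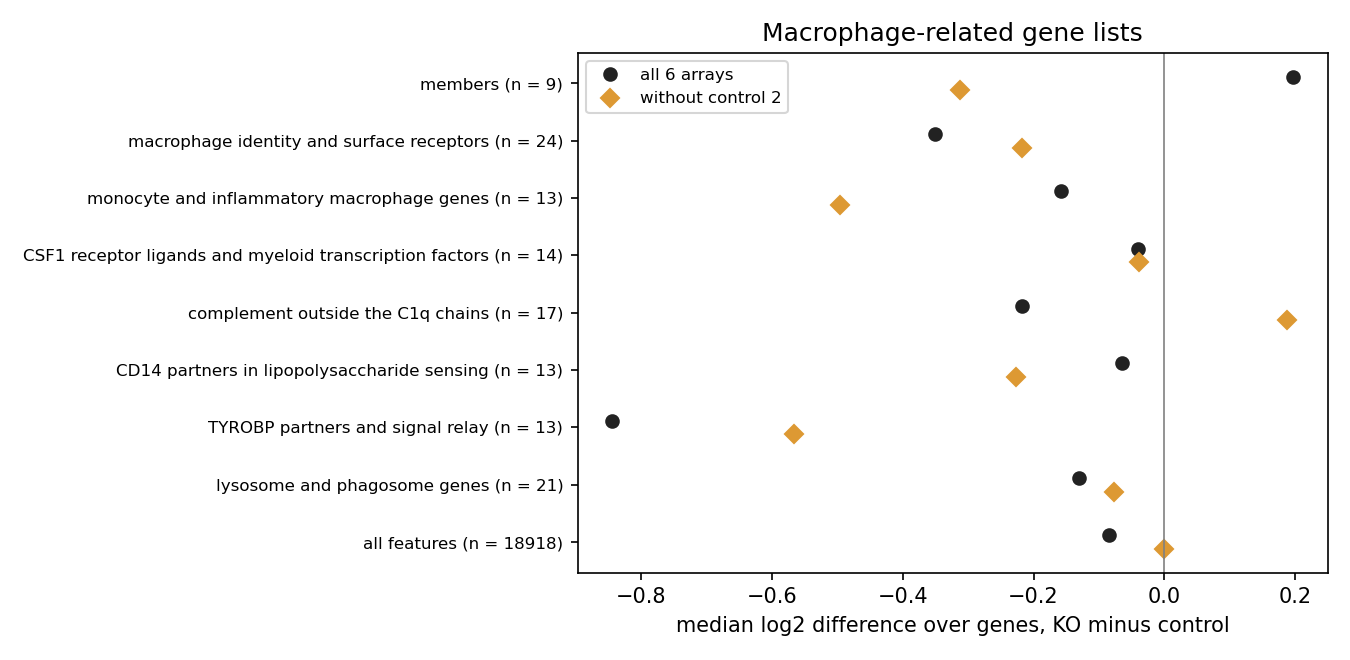
Median log2 difference, KO minus control, over the measured genes of the 9 members, of each of the 7 related gene lists and of all 18918 features, from all 6 arrays (black circles) and without control 2 (orange diamonds). The members move from 0.20 to -0.31, complement genes from -0.22 to 0.19, and TYROBP partners stay at -0.84 and -0.57.

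Markers of other cells that share member genes were read on the same arrays. Neutrophil markers, 6 of 11 measured, averaged 2.71 to 4.08 in control and 2.88 to 3.31 in KO, with control 2 highest, and 1 of the 6 was at the floor on each control array. Retnlg, a neutrophil gene, was 8.07 on control 2 and 5.40 to 7.04 on the other arrays. Endothelial and lymphatic markers averaged 4.49 to 5.12 in control and 4.43 to 4.67 in KO, also with control 2 highest. NK and cytotoxic T cell markers, 7 of 11 measured, averaged 4.74 to 5.29 in control and 4.32 to 4.93 in KO. Of these 7, 5 were lower and 2 higher in KO. Cd3d differed by -1.27 and Nkg7 by -1.28 (limma unadjusted p = 0.0151 and 0.0342, adjusted p = 0.810 and 0.940), each with groups that did not overlap. Ncr1 and Cd8a, both dim, differed by 1.14 and 0.61, and without control 2 Cd8a, at the floor on both other control arrays, differed by 1.32 (limma unadjusted p = 0.0096, adjusted p = 0.532). The 10 epithelial markers averaged 10.87 to 11.32 in control and 11.04 to 11.30 in KO. Of the 16 macrophage markers 14 were measured, averaging 5.54, 3.17 and 5.18 in control and 4.54, 5.65 and 4.72 in KO, with 4 of the 14 at the floor on control 2. Without control 2, when all 9 members were lower, all 9 smooth muscle markers (median 0.64) and 7 of 8 fibroblast markers (median 0.29) were higher in KO. In the same 5 arrays 6 of 7 follicle and 4 of 5 B and plasma cell markers were lower. The part of these other cells in the member values was not tested.

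The genes whose profile over the 6 arrays was most like the members' mean were Nvl, Pbdc1, Ifit1bl1, Naca, Pou2af1, Ttf2, Nop10 and Dctd, with Pearson's r from 0.973 to 0.995 among 8411 brighter genes. Without control 2 their r was 0.871 to 0.993 over 5 arrays. Ifit1bl1, of an interferon-induced family, measured 10.56, 4.31 and 10.10 in control and 8.59, 10.85 and 8.87 in KO. Pou2af1, a B cell coactivator gene, was at the floor on control 2 and highest on control 1. Naca, which encodes a subunit of the nascent chain complex at the ribosome, ranged only from 10.17 on control 2 to 10.94 on control 1. The least alike were Aktip, Tmem53, Camta2 and Gpn2, with r from -0.999 to -0.989 and their highest values on control 2. Members were left out of this ranking, as were genes averaging 3.92 or less on the log2 scale. Of the 16 macrophage markers only Mertk and Aif1 could therefore appear. Brighter genes of the macrophage identity list, among them Apoe, Sirpa, Fcer1g, Cbr2 and Axl, could appear as well. None of these named genes was among the 8 most alike genes. The correlations share 6 arrays and are given without a test.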

How the data were processed

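Colon RNA of 3 control and 3 Setd2 KO samples was labelled with an Ambion kit for Illumina arrays, per the labels' protocols. The values used were the authors' deposited normalized probe intensities, linear, with 1 shared median (3.82) and 1 maximum (16715). The software behind them is not given in the sources used here. A deposited table of unnormalized values was not used, because its 12 columns of values match no sample label, so detection p-values were not used either.

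Intensities were log2 transformed with no offset. Probes were named by the platform annotation: 34885 had 1 symbol, 18 several and 10378 none. A probe was kept if its average over the arrays passed the 40th percentile (0.96 on the log2 scale), which left 27168. The brightest probe stood for each gene, and unnamed probes stood for themselves, giving 18918 features. Genotypes were compared by a 2-sided moderated test in limma 3.58.1 under R 4.3.3. P-values were adjusted by Benjamini-Hochberg across the 18918 features and called at 0.05. With all arrays, the differences and SEs given for other probes of a gene came from a fit in which every kept probe was a feature. Without control 2 they came from a fit of all 45281 probes, with no filter. SEs of other probes therefore come from other fits than those of the brightest probes. Exact permutation tests of 3 against 3 arrays cannot go below 0.1. The number of arrays limits the precision.

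The members, gene lists and tests were chosen with earlier results of these data known. Genes named beside the members were Setd2, up to 4 per list with the smallest p among those averaging over the 70th percentile (3.92), up to 4 per other cell type, and the 8 most and 4 least alike in profile. Spi1, to which the promoter motif refers, and Ncr1 and Cd8a were named after their values were seen. Alternatives covered the filter, offset, centring, variance model, array weights, replicate block and each array left out.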

Additional observations from a re-analysis of the deposited data

How the results depend on the processing

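Under all 15 alternatives 0 members passed the adjusted threshold, and 0 features of the whole table passed under 14 of them. With no filter on low values 11 of 29453 features passed, none of them a member. With a filter at the 70th percentile 1 of 7 remaining members was lower in KO, and with array weights 5 of 9, where C1qa gave -0.037 and Cd14 -0.081. Without each array in turn, 1 (without KO 3) to 9 (without control 2) of the 9 members were lower. The differences then ranged from -0.31 to 1.48 for C1qa, -0.33 to 1.61 for C1qb, -0.22 to 2.82 for C1qc, -0.0094 to 0.41 for Csf1r, -0.23 to 0.57 for Cd14 and -0.25 to 3.87 for Lyz2. They ranged from -2.27 to -0.24 for Adgre1, -0.93 to 0.39 for Mrc1 and -1.50 to 0.83 for Tyrobp. In all, 14 of 133 member differences changed sign and 119 did not. The settings of the filter, of every probe as a feature, of the variance model and of the replicate block cannot change a member's difference. Their unchanged signs were thus fixed in advance and are no measure of stability. All 14 changes came with an array left out or with array weights. The cause was not tested. Same-numbered control and KO arrays deviated from their group means with correlations of 0.163, -0.0937 and 0.0372, so the numbers were not taken to pair samples. With the replicate number as a block, 0 features passed and 840 had an unadjusted p under 0.05, against 814. The block leaves every difference as it was, so the count of 3 members lower was fixed in advance. Counts at an unadjusted p under 0.05 ranged from 202 of 10308 bright features, and 467 of 18918 with an offset of 16, to 1309 without control 3. Normalizing the unnormalized table was not run, since its columns could not be tied to samples by name. Dim probes such as those of Adgre1 and Tyrobp lay close to the floor, where small differences were not measurable.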

Other observations

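Genes of lymphoid follicles varied widely between arrays of the same genotype. The 7 measured follicle and lymph node genes averaged 5.82, 1.42 and 2.40 on control 1 to 3 and 4.26, 3.50 and 1.76 on KO 1 to 3. Of the 7, 5 were at the floor on control 2, 4 on KO 3, 1 on control 3 and 1 on KO 2. Cxcl13, the chemokine gene that draws B cells into follicles, measured 6.44, 1.81 and 3.15 in control and 5.48, 5.31 and 1.07 in KO. Cd79b, a B cell receptor subunit gene, measured 8.65, 6.09 and 3.88 in control and 6.18, 5.55 and 3.17 in KO. Adipocyte genes had another order: Adipoq, which encodes adiponectin, measured 1.37, 8.20 and 8.58 in control and 3.20, 7.56 and 6.84 in KO.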
